A study of Quercus x morisii and Quercus suber and Quercus ilex with 16 samples.

Results

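The loci described here are the 200 whose RNA stood furthest above all other barks in cork-like bark, the outer bark of a hybrid between holm oak and cork oak. They were chosen by measured values. From 47292 loci with a regularized log2 count (rlog, a log2 scale on which 1 unit is a doubling), the 17754 that averaged at least 5 over the 16 libraries were kept. A score was taken for each as the lowest of the 4 cork-like libraries minus the highest of the other 12, and the 200 highest scores above 0 were taken (1.13% of the 17754). All 16 libraries therefore entered the choice, and the height of these loci in cork-like bark is given as a description, without a test.

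RNA-seq had been made from outer bark of trunks of trees that grew naturally in a mixed forest of both oaks. Cork-like bark came from 1 hybrid tree (Quercus x morisii), described by the study as a backcross to cork oak, with 1 library from each of its sides (north, south, east and west). Rhytidome-like bark came from 4 hybrid trees (Quercus x morisii) whose bark resembles that of holm oak. Cork came from 4 cork oaks (Quercus suber) and rhytidome from 4 holm oaks (Quercus ilex), and in these last 3 barks each tree gave 1 library from its south side. The spread among cork-like libraries is a spread within a tree, so in cork-like bark the bark type, the genotype and the individual tree cannot be told apart.

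Outer bark is built by the phellogen, a meristem that gives phellem (cork cells with suberin in their walls) to the outside and phelloderm to the inside. In cork oak the first phellogen persists and leaves a thick, even layer of cork. In holm oak and most other trees new phellogens arise deeper in the phloem, and the dead layers of periderm and phloem between them form a rhytidome. Because these are bulk samples, fewer cells of a type and less RNA per cell cannot be told apart.

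As a check of the tissue, 8 suberin loci from the study's table of periderm genes were read, picked by hand with earlier results known, among them the homologues of GPAT5, an acyltransferase, and of CYP86B1, a fatty acid hydroxylase, both of suberin synthesis in Arabidopsis. Their mean per library lay between 14.40 and 14.65 in cork-like bark, between 8.55 and 10.41 in rhytidome-like bark, between 15.49 and 15.97 in cork and between 12.23 and 12.89 in rhytidome. These loci were thus high in cork-like bark and highest in cork, and all 8 had a score below 0. Taking all 16 loci of that table given for the synthesis, polymerization, transport or assembly of suberin and with a mean rlog that passed the filter, a set added after seeing the values, the cork-like mean was above that of rhytidome-like bark at 15, of cork at 2 and of rhytidome at 14, and 0 had a score above 0. The exceptions included WBC11/ABCG11 (LOC112029276), a transporter, with 10.91 in cork-like bark, 12.55 in rhytidome-like bark, 11.09 in cork and 13.57 in rhytidome. The part that phellem content had in the values of the 200 loci was not tested. Lists set by product words held 0 named loci above the filter for sieve elements and for secondary walls, 1 for photosynthesis and 2 for cell division. With so few gene names, phloem, fibres, green tissue and dividing cells were not read.

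The separation was widest at LOC112028533, with a score of 5.29. Its rlog was 11.76, 11.58, 11.30 and 11.55 in cork-like bark at the north, south, east and west sides. The other barks gave 3.41, 2.21, 5.95 and 2.49 in rhytidome-like trees 21, 14, 18 and 20, then 2.64, 6.01, 1.41 and 2.13 in cork trees 87, 89, 90 and 91, and 5.10, 5.22, 2.96 and 3.83 in rhytidome trees 33, 67, 68 and 94. Every one of these 12 libraries was low, and the highest of them, cork 89, stood apart from the other cork trees. LOC112012398 had the next score, 3.16, with 8.89, 8.74, 8.45 and 8.57 in cork-like bark, against 3.58 to 5.28 in rhytidome-like bark, 3.34 to 3.95 in cork and 4.48 to 5.14 in rhytidome. Here the other 12 libraries were all low and lay within 2 units of each other. These were the only 2 loci with a score of at least 3. No file used here pairs either locus with a gene name.

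At LOC111987557 a single tree set the score of 2.71. Its rlog was 11.56, 11.68, 12.15 and 11.90 in cork-like bark, against 4.99, 4.03, 3.70 and 3.62 in rhytidome-like bark, 5.18, 5.87, 8.85 and 4.11 in cork and 5.41, 4.62, 5.04 and 6.31 in rhytidome. Cork 90 was the exception, at more than 2 units above every other library outside cork-like bark. At LOC111988811 (score 2.61) the cork-like libraries had 10.57, 9.77, 9.93 and 10.24. The rhytidome libraries were split, with 6.68, 6.39 and 7.16 in trees 33, 67 and 94 and 2.59 in tree 68, while rhytidome-like bark spanned 2.99 to 4.88 and cork 1.35 to 3.55.

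Such single trees were few, here as over all 17754 loci. The highest of the 12 libraries stood above the next by a median of 0.23 over the 200 loci, against 0.18 over the 17754, and by more than 1 at 6 loci (3.0%, against 4.06%). A gap above 2 was found at 2 of the 200 loci, against 0.81% of the 17754. Beside LOC111987557, this was LOC112020086, which had 10.81, 11.06, 11.76 and 11.08 in cork-like bark. Cork 89 had 9.94 there, against 5.02, 4.92 and 4.74 in the other cork trees, 4.43 to 5.44 in rhytidome-like bark and 5.56 to 6.79 in rhytidome. The score subtracts the highest library, so such a tree lowers it, but the shares of such loci were close to those over the 17754.

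The next loci in the order of scores showed several patterns below cork-like bark. LOC112013193 (score 2.85) had 10.36, 10.23, 9.54 and 9.94 in cork-like bark, against 3.58 to 5.23 in rhytidome-like bark, 4.70 to 6.69 in cork and 3.70 to 6.10 in rhytidome, so that the other 3 barks overlapped with each other. LOC112024631 (score 2.77) had 9.29, 9.38, 9.65 and 9.46, against 2.13 to 6.52, 1.44 to 4.45 and 4.76 to 6.15 in the same barks, with rhytidome-like 21 as the highest of the 12. LOC112023900 (score 2.42) had 10.56, 10.32, 10.57 and 10.39, against 3.79 to 5.97, 6.21 to 7.89 and 4.85 to 6.84. Here cork did not overlap with rhytidome-like bark, which was the lowest. LOC111997018 (score 2.31) also had cork next, at 5.58 to 6.36, while cork-like bark had 8.67 to 9.46 and the rhytidome-like and rhytidome trees all lay between 2.27 and 4.49.

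**Figure D1:**
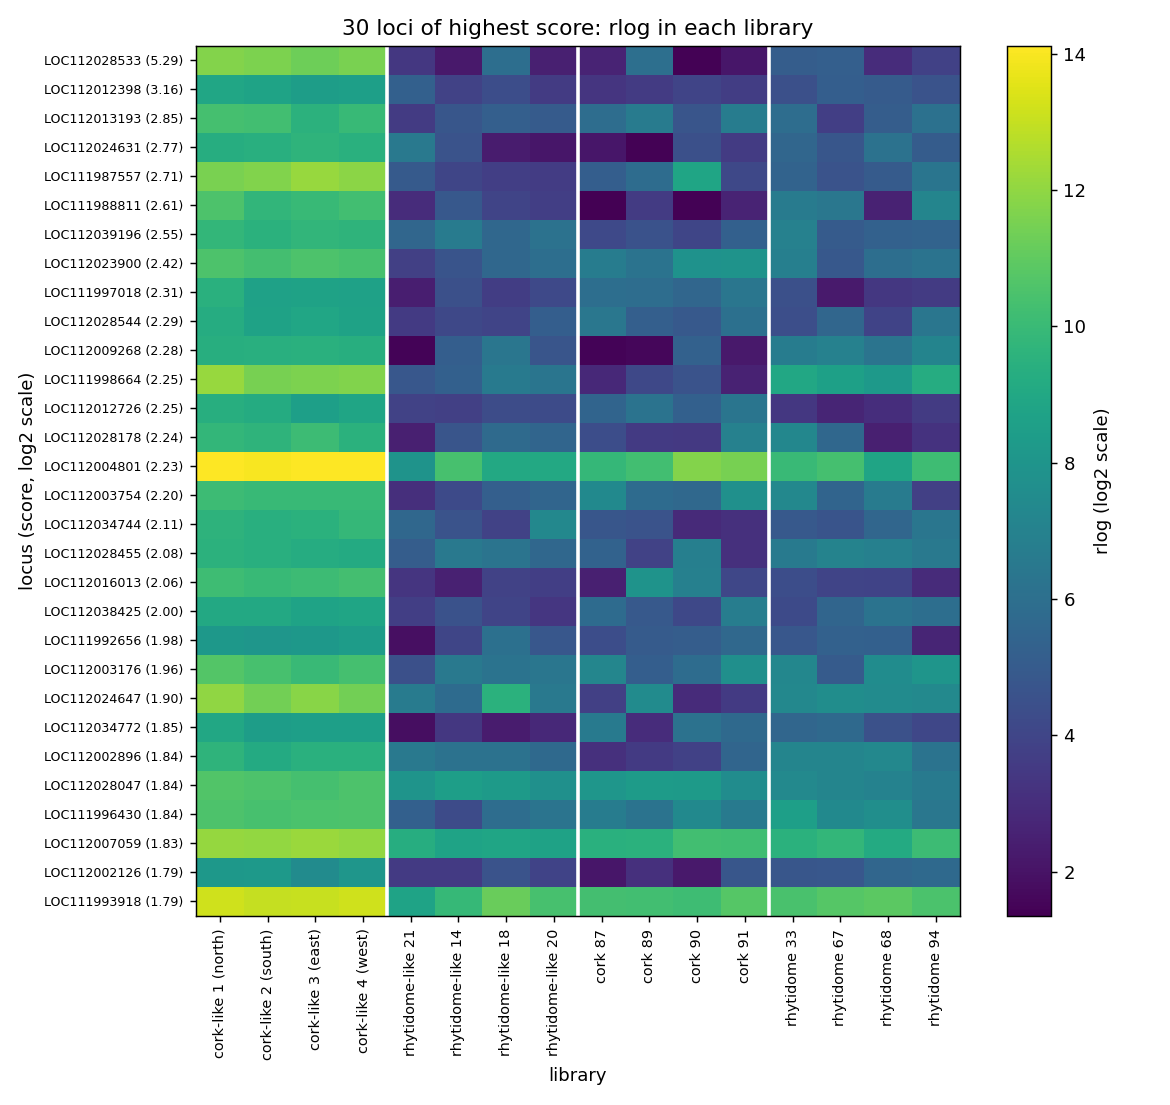
Rlog values (colour, log2 scale) of the 30 loci with the highest score (rows, score in parentheses) in each of the 16 libraries (columns, grouped by bark). The 4 cork-like columns are high in every row, and cork 90 at LOC111987557 (8.85) is an example of a single library that stands out among the other 12.

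The scores declined fast below these. A score above 2 was held by 20 loci and a score above 1 by 100, and the median was 1.00. Just inside the limit stood LOC112009724, LOC112011371 and LOC112004764, with scores of 0.65, 0.65 and 0.64. Just outside it were LOC111991769, LOC112022778 and LOC111988838, with 0.64, 0.64 and 0.63, so the limit of 200 falls in a continuous range. In all, 762 loci (4.29% of the 17754) had every cork-like library above the other 12. The same rule, applied to the other barks, gave 1551 loci for rhytidome-like bark, 1891 for cork and 490 for rhytidome. These counts depend on the scaling of the libraries, and after median centring of each library they were 331 for cork-like bark, 1764 for rhytidome-like bark, 4281 for cork and 154 for rhytidome. Loci with every library more than 1 above the other 12 numbered 100 in cork-like bark, 67 in rhytidome-like bark, 135 in cork and 71 in rhytidome. The counts for cork-like bark rest on 4 sides of 1 tree and the others on 4 trees each. Over the 17754 loci the median SD was 0.18 in cork-like bark, 0.40 in rhytidome-like bark, 0.25 in cork and 0.35 in rhytidome. Closer libraries make the rule easier to meet, so the counts are not alike.

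Over the 200 loci the bark means had a median rlog of 9.75 in cork-like bark (6.84 to 15.17), 6.07 in rhytidome-like bark (2.05 to 12.75), 7.06 in cork (2.24 to 13.54) and 6.88 in rhytidome (2.22 to 12.45). Over all 17754 loci these medians of bark means were 9.12, 8.98, 9.08 and 9.09 in the same barks. Most of the chosen loci were thus low, but measurable, outside cork-like bark. The bark mean was under 4 at 24 loci in rhytidome-like bark, 16 in cork and 9 in rhytidome. At 34 of the 200 loci the mean over the other 12 libraries was under 5, so that these passed the filter on low values only through cork-like bark.

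The cork-like mean exceeded that of rhytidome-like bark by a median of 3.74 (1.06 to 8.03), that of cork by 2.26 (0.93 to 8.5) and that of rhytidome by 2.66 (0.93 to 8.51). A difference above 4, a 16-fold change on this scale, was found at 89 loci against rhytidome-like bark, at 40 against cork and at 42 against rhytidome. Against whichever other bark was highest, the difference had a median of 1.97 and was above 4 at 12 loci. These differences were fixed by the choice of loci.

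**Figure D2:**
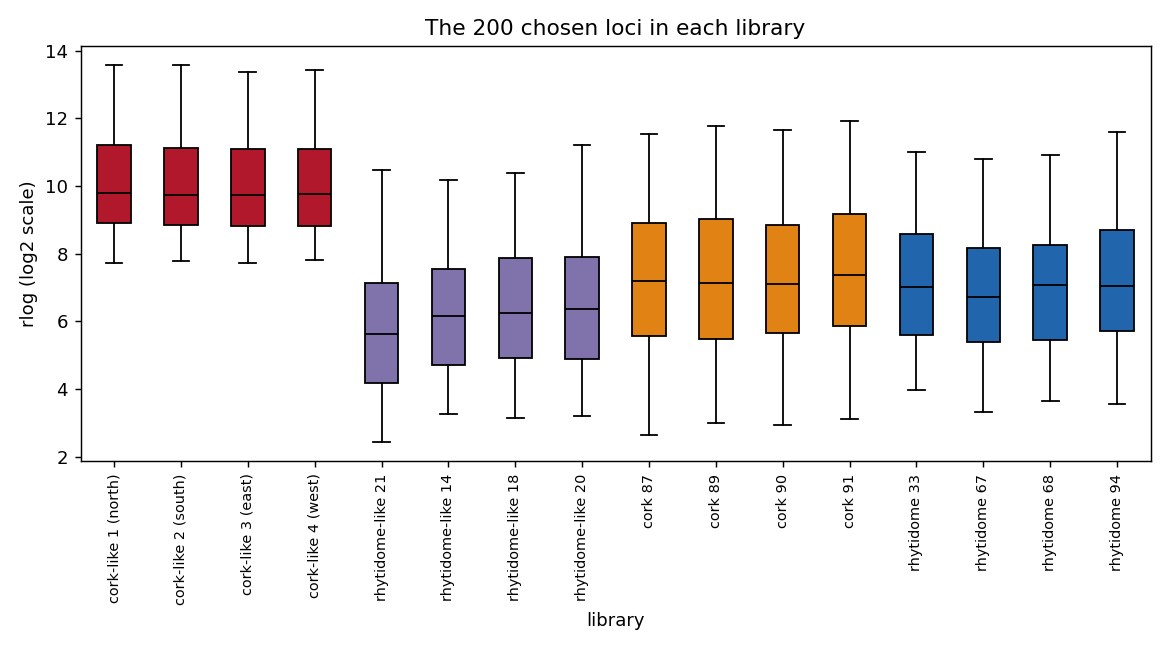
Rlog (log2 scale) of the 200 loci in each library, with the box from the lower to the upper quartile, the line at the median and whiskers at the 5th and 95th percentiles. The medians of the cork-like libraries lie between 9.75 and 9.80, while rhytidome-like 21 has the lowest (5.62) and cork 91 has the highest of the other 12 (7.37).

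Some of the loci had high values in other barks too. At LOC112024113 the rlog was 15.34, 15.14, 14.72 and 14.86 in cork-like bark, against 8.0, 10.02, 10.11 and 9.98 in rhytidome-like bark, 13.58, 13.21, 13.72 and 13.51 in cork and 11.93, 10.59, 11.88 and 13.11 in rhytidome. Cork was next here, with no overlap between its 4 trees and the cork-like libraries, and rhytidome-like 21 was the lowest library. LOC111996249 had 15.29, 15.33, 15.07 and 15.00 in cork-like bark, with 9.76 to 11.20 in rhytidome-like bark, 9.57 to 13.75 in cork and 11.46 to 13.48 in rhytidome. Its cork trees were spread over more than 4 units, cork 91 being the highest at 13.75. LOC112004801, of the 30 loci with the highest score, had 14.12, 13.99, 14.07 and 14.07 in cork-like bark, against 7.93 to 10.39 in rhytidome-like bark, 9.86 to 11.76 in cork and 8.79 to 10.33 in rhytidome. LOC112000865 was the exception among these loci in that rhytidome-like bark came next. Cork-like bark had 13.82 to 14.45, against 12.20 to 13.07 in rhytidome-like bark, 11.73 to 12.67 in cork and 11.35 to 12.24 in rhytidome. Rlog values are not corrected for the length of a locus, so they do not rank loci by abundance.

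The chosen loci varied little among cork-like libraries and much among the trees of the other barks. The median SD was 0.17 in cork-like bark (4 sides of 1 tree), 0.74 in rhytidome-like bark, 0.60 in cork and 0.61 in rhytidome (4 trees each). Over the 17754 loci it was 0.18, 0.40, 0.25 and 0.35 in these barks. At 173 of the 200 loci (86.5%) every other bark had a larger SD than cork-like bark, against 54.3% of the 17754. The score favours loci with close cork-like libraries, but their median SD there was near that of all loci. In the other barks the median SD was larger at the chosen loci than over all loci. Their levels there were also lower, with median bark means of 6.07 in rhytidome-like bark, 7.06 in cork and 6.88 in rhytidome. The part that level had in this spread was not tested. The comparison also sets sides of a tree against different trees.

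Among the sides of the cork-like tree, north was the highest at 92 of the 200 loci (46.0%, against 34.7% of the 17754), east at 46, west at 33 and south at 29. North was the lowest at 19. The north library was above the mean of the tree at 153 of the 200 loci, by 0.09 on average, whereas over the 17754 loci it lay 0.04 below. The values of all sides entered the choice of loci. By the choice, each locus has its lowest side above the other barks, while the range among sides was much like that of all loci. Each side is 1 library, so side and library cannot be told apart, and no test was made. The range among the 4 sides had a median of 0.39 (0.40 over the 17754) and exceeded 1 at 2 loci. These were LOC112010056, with 11.73, 10.39, 11.20 and 11.73 at the north, south, east and west sides, and LOC112032382, with 7.76, 8.13, 9.09 and 8.24. The south side was the lowest at the first of these loci, and the north side at the other. At 8 loci the range among sides was larger than the score.

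Of the other 3 barks, cork came next below cork-like bark most often. Cork had the next highest mean at 112 loci (56.0%), rhytidome at 68 (34.0%) and rhytidome-like bark at 20 (10%). Over the 17754 loci, cork was the highest of the 3 at 39.1%, rhytidome at 24.8% and rhytidome-like bark at 36.1%. Rhytidome-like bark, the other hybrid bark, was the lowest of the 3 at 121 of the 200 loci (60.5%, against 34.0% of the 17754). These counts include the 34 loci that passed the filter only through cork-like bark. Among the 30 loci with the highest score, rhytidome was next at 16, cork at 12 and rhytidome-like bark at 2. The library that limited the score was a cork tree at 112 loci, a rhytidome tree at 63 and a rhytidome-like tree at 25, most often cork 91 (39) and rhytidome 94 (27).

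Single trees shifted over the whole set. Over the 200 loci, rhytidome-like 21 lay 0.44 below the mean of its bark on average and was above it at 63, whereas over the 17754 loci it lay 0.01 below. Rhytidome-like 20 lay 0.29 above its bark mean, rhytidome 94 0.18 above, cork 91 0.14 above and rhytidome 67 0.19 below. Once the bark means were removed, the correlation between pairs of the 200 loci over the 12 libraries averaged 0.06, against 0.01 over pairs of the 17754 loci. The 5th and 95th percentiles of the pairs were −0.52 and 0.62. These correlations are over 12 libraries and 3 barks, with the same libraries and scaling behind every pair.

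Differences among the other 3 barks were tested with limma on their 12 libraries (1 per tree), over the 25617 loci that averaged at least 1 over the 16 libraries. A locus was called where the Benjamini-Hochberg adjusted p was under 0.01 and the log2 fold change exceeded 1 in size. The score treats these barks alike, but it uses the highest of the 12 libraries, so a locus high in any of them is less likely to be chosen. The comparisons share libraries and are not independent. Of the 200 loci, 90 (45.0%) were called in at least 1 of the 3 comparisons of a pair of barks, against 43.2% of the 17754, and 110 in none. The 200 include 34 loci that passed the filter only through cork-like bark, and the count of 90 was not split by this.

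Rhytidome-like bark was compared with the bark of each parent species. Against cork, 64 of the 200 loci (32.0%) were lower in rhytidome-like bark and 6 (3.0%) higher, where the 17754 loci had 18.2% lower and 15.4% higher. The median log2 fold change was −1.02 over the 200 loci and 0.04 over the 17754. Against rhytidome, 30 (15.0%) were lower and 3 (1.5%) higher, where the 17754 loci had 9.59% lower and 6.06% higher. The median was −0.82, against 0.01. The scaling moved the shares against rhytidome in both sets. With quantile normalization 24 of the 200 (12%) were lower and 7 (3.5%) higher, against 7.74% and 7.37% of the 17754, and with median centring 18 (9.0%) and 9 (4.5%), against 5.14% and 19.4%. Lower in rhytidome-like bark than in both parents were 22 loci (11%, against 6.97% of the 17754), and 0 were called higher than both, against 3.46% of the 17754. Among the 166 loci that did not pass the filter through cork-like bark alone, 56 (33.7%) were lower than cork and 26 (15.7%) lower than rhytidome. Those higher were 6 (3.61%) and 3 (1.81%). The medians and the counts against both parents, 22 and 0, were not split in this way.

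Against the mean of cork and rhytidome, 51 loci (25.5%) were lower in rhytidome-like bark and 4 (2.0%) higher, where the 17754 loci had 14.5% lower and 10.3% higher. Among the 166 loci that did not pass the filter through cork-like bark alone, 46 (27.7%) were lower and 4 (2.41%) higher. The fitted change was negative at 162 of the 200 loci, called or not, and at 48.1% of the 17754. This count of 162 was not split by the filter and includes the 34 loci that passed it only through cork-like bark. Without rhytidome-like 21, whose values were the lowest, 43 of the 200 loci were lower and 4 higher than the mean of the parents, where 14.3% and 10.5% of the 17754 were. Against cork 52 were lower and 5 higher, with 18.1% and 15.3% of the 17754, and against rhytidome 28 were lower and 6 higher, with 9.75% and 6.76%. Without that tree, the 166 loci had 40 lower and 4 higher than the mean of the parents. They had 48 lower and 5 higher than cork, and 24 lower and 6 higher than rhytidome.

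**Figure D3:**
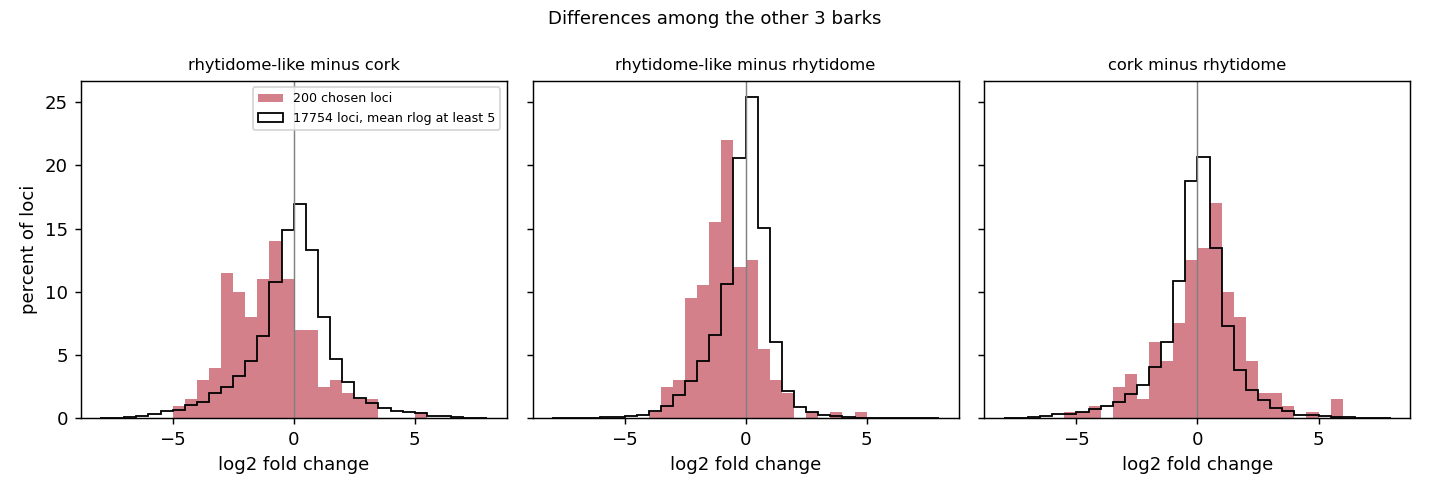
Log2 fold changes among the other 3 barks for the 200 loci (filled) and for the 17754 loci above the filter (outline), as percent of loci in bins of 0.5. The 200 loci are shifted to negative values in rhytidome-like minus cork (median −1.02) and rhytidome-like minus rhytidome (median −0.82), and less so, to positive values, in cork minus rhytidome (median 0.33). They include the 34 loci that passed the filter only through cork-like bark.

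Among the largest decreases against the mean of the parents was that at LOC112022852. It had 6.0, 6.0, 6.60 and 7.07 in rhytidome-like bark, against 11.20, 11.08, 10.25 and 10.63 in cork and 9.86, 7.95, 9.15 and 8.97 in rhytidome, with 12.81 to 13.21 in cork-like bark. Rhytidome-like bark overlapped with neither parent and lay 3.47 ± 0.33 (SE) below their mean (limma, adjusted p = 7.99e-06). LOC112017906 had a like order, with 1.45, 2.58, 2.39 and 1.77 in rhytidome-like bark, against 6.34, 5.78, 7.09 and 6.65 in cork and 6.05, 4.06, 4.91 and 6.13 in rhytidome, with 7.90 to 8.73 in cork-like bark. No test is given for this locus, since its mean over the other 12 libraries was 4.60 and it passed the filter only through cork-like bark.

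The largest decrease against cork was at LOC112034114. Its rlog was 6.80, 10.02, 7.41 and 9.62 in rhytidome-like bark, against 13.24, 12.90, 13.23 and 13.65 in cork, with 14.41 to 14.63 in cork-like bark and 8.78 to 10.80 in rhytidome. The rhytidome-like trees formed a wide range that lay wholly below cork, with a log2 fold change of −4.79 ± 0.65 (limma, adjusted p = 6.57e-05). LOC111987735 fell in rhytidome-like bark against rhytidome, with 4.83, 3.26, 3.52 and 5.40 against 7.77, 7.82, 7.46 and 6.80 (log2 fold change −3.21 ± 0.48, limma, adjusted p = 4.64e-04). Its cork libraries, at 6.77 to 7.68, overlapped with those of rhytidome.

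A few loci went the other way. LOC112008871 had 7.65, 5.76, 7.78 and 8.81 in rhytidome-like bark, against 2.45, 1.85, 2.77 and 2.15 in cork, with 9.75 to 10.35 in cork-like bark and 6.53 to 8.02 in rhytidome. It was low in cork alone, and rose in rhytidome-like bark against cork by 5.20 ± 0.59 (limma, adjusted p = 1.67e-05). LOC112004206 had the same order, with 9.21, 9.38, 9.30 and 8.89 in rhytidome-like bark, 5.79, 5.12, 5.50 and 6.85 in cork, 8.82 to 9.0 in rhytidome and 10.57 to 11.03 in cork-like bark (rhytidome-like minus cork 3.38 ± 0.31, limma, adjusted p = 3.21e-06). At LOC112022831 rhytidome was the lowest, with 7.98, 8.81, 7.85 and 8.03 in rhytidome-like bark against 2.00, 3.32, 3.90 and 4.16 in rhytidome, a log2 fold change of 4.82 ± 0.89 (limma, adjusted p = 0.00178). Its cork trees were split between 2.91 and 3.53 in trees 87 and 91 and 6.61 and 7.33 in trees 89 and 90.

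Between the parents the 200 loci were divided. Cork was higher than rhytidome at 26 loci (13.0%) and lower at 14 (7.0%), where the 17754 loci had 12.7% higher and 12.2% lower, and the median log2 fold change was 0.33 against 0.03. Among the 166 loci that did not pass the filter through cork-like bark alone, 23 (13.9%) were higher in cork and 9 (5.42%) lower. The median was not split in this way. The scaling moved the counts of the 200 loci as it moved those of the whole table. After quantile normalization 30 were higher and 9 lower (13.1% and 11.1% of the 17754), and after median centring 71 and 8 (39.4% and 5.62%). The largest was at LOC112006466, with 8.22, 8.41, 8.22 and 7.95 in cork against 1.53, 2.83, 2.01 and 2.50 in rhytidome, and with 9.06 to 9.42 in cork-like bark and 3.00 to 7.12 in rhytidome-like bark. Cork minus rhytidome was 5.98 ± 0.73 (limma, adjusted p = 5.31e-05), and cork-like bark lay about 1 unit above cork. LOC112010056 and LOC111987354 also had a high cork and a low rhytidome, by 5.91 ± 0.84 and 5.72 ± 0.54 (limma, adjusted p = 1.48e-04 and 8.22e-06). Reads of all barks were mapped to a cork oak assembly. How far this lowered values in holm oak or the hybrids was not tested.

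LOC111998664 was the reverse. Its rlog was 2.81, 4.14, 4.63 and 2.57 in cork against 9.02, 8.59, 8.27 and 9.24 in rhytidome, a log2 fold change of −5.24 ± 0.54 (limma, adjusted p = 1.49e-05). Cork-like bark had 11.49 to 12.14 and rhytidome-like bark 4.8 to 6.60. Cork-like bark lies above both parents at every chosen locus. That it was nearer to rhytidome here only restates that rhytidome was higher than cork.

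Gene names were at hand for few loci. Of the 17754 loci, 377 had a name or an Arabidopsis match in the tables used, and of the 200 only LOC112025595 did. It matches an Arabidopsis protein of the 2-oxoglutarate and Fe(II)-dependent oxygenases, a large family of oxidizing enzymes in plant secondary metabolism and hormone turnover. Its rlog was 9.16, 8.87, 8.93 and 8.76 in cork-like bark, against 4.85, 5.75, 5.25 and 6.63 in rhytidome-like bark, 6.38, 5.08, 5.66 and 5.66 in cork and 7.37, 6.72, 6.13 and 6.98 in rhytidome. Its score was 1.39. It was called in none of the comparisons among the other barks, with a log2 fold change of −1.18 ± 0.44 in rhytidome-like minus rhytidome (limma, adjusted p = 0.0629) and −1.10 ± 0.44 in cork minus rhytidome (limma, adjusted p = 0.0587). A protein identifier was lacking at 8 of the 200 loci (4.0%), against 1.30% of the 17754.

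Another 14 named loci had a score above 0 but below the limit of the 200. With LOC112025595 they were 3.98% of the 377 named loci, against 4.29% of the 17754. These 14 were picked after their values were seen. Rhytidome-like bark was the lowest at 11 of them and cork was next below cork-like bark at 12. Over the 17754 loci, rhytidome-like bark was the lowest of the other 3 barks at 34.0% and cork the highest at 39.1%. The name with most loci above 0 was Divalent ion symporter, at 3 of its 4 loci. At 1 of them, LOC112029835, the means were 10.50 in cork-like bark, 9.81 in rhytidome-like bark, 9.78 in cork and 9.71 in rhytidome. The nearest to the limit was LOC112006012, named CER4/FAR3, in Arabidopsis a fatty acyl reductase that makes the primary alcohols of wax. It had 13.31, 13.18, 13.14 and 13.04 in cork-like bark, against 7.19, 8.86, 8.64 and 8.39 in rhytidome-like bark, 11.11, 11.32, 11.91 and 12.44 in cork and 11.40, 10.61, 10.60 and 11.66 in rhytidome (score 0.60). Cork 91 again limited the score.

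MYB84 (LOC111997050), an R2R3-MYB transcription factor, averaged 10.89 ± 0.03 in cork-like bark, 7.80 ± 0.22 in rhytidome-like bark, 10.32 ± 0.08 in cork and 9.58 ± 0.63 in rhytidome (SD, n = 4 libraries each). MYB4 (LOC112037069), which in Arabidopsis represses phenylpropanoid genes, averaged 12.87 ± 0.06, 9.75 ± 0.26, 12.51 ± 0.19 and 11.01 ± 0.35 in the same barks. At these loci cork-like bark and cork were close together and rhytidome-like bark was low, but other loci of the same names differed. Rhytidome-like bark was the lowest of the other barks at 3 of the 4 loci named MYB84 and at 2 of the 3 named MYB4. At MYB4 LOC111990470 the means were 10.04 in cork-like bark, 13.15 in rhytidome-like bark, 8.91 in cork and 11.84 in rhytidome, and at MYB84 LOC112010399 they were 5.66, 7.56, 2.58 and 8.08 in these barks. Of 3 loci named PER3, a peroxidase, LOC112041098 and LOC112024648 had a score above 0 and had their lowest values in rhytidome-like bark, at 2.82 ± 0.97 and 2.83 ± 0.70. In cork-like bark they had 9.79 ± 0.31 and 8.91 ± 0.26, in cork 8.38 ± 0.75 and 7.49 ± 0.81, and in rhytidome 5.75 ± 2.24 and 5.56 ± 1.86. At the other, LOC111996084, cork (8.61) was above cork-like bark (7.71), with 6.24 in rhytidome-like bark and 6.84 in rhytidome. Only uniquely mapped pairs were kept, so reads that fit more than 1 locus equally well were dropped. How far this changed the values of loci this alike in name was not tested.

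TRICHOME BIREFRINGENCE-LIKE 25 (LOC112014198), of a family that acetylates cell wall polysaccharides, averaged 11.33 ± 0.09 in cork-like bark, 6.55 ± 0.36 in rhytidome-like bark, 10.24 ± 0.39 in cork and 8.25 ± 0.43 in rhytidome (SD, n = 4 each). HERK1 (LOC112000774), in Arabidopsis a receptor kinase of cell elongation, averaged 13.66 ± 0.15, 10.60 ± 0.41, 12.80 ± 0.38 and 11.37 ± 0.06 in these barks. At HB-8 (LOC112029705), in Arabidopsis a homeobox factor of vascular development, the score was 0.02 and cork-like bark (12.69 to 12.95) barely cleared cork (12.13 to 12.67). These loci stood above cork by less than most of the 200 did. Of 74 loci above the filter in the study's table of periderm genes, 7 (9.46%, against 4.29% of the 17754) had a score above 0 and 0 were among the 200, which hold 1.13% of the 17754, so that a count of 0 in 74 says little. The study chose that table on these samples, so it is not independent evidence.

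**Figure D4:**
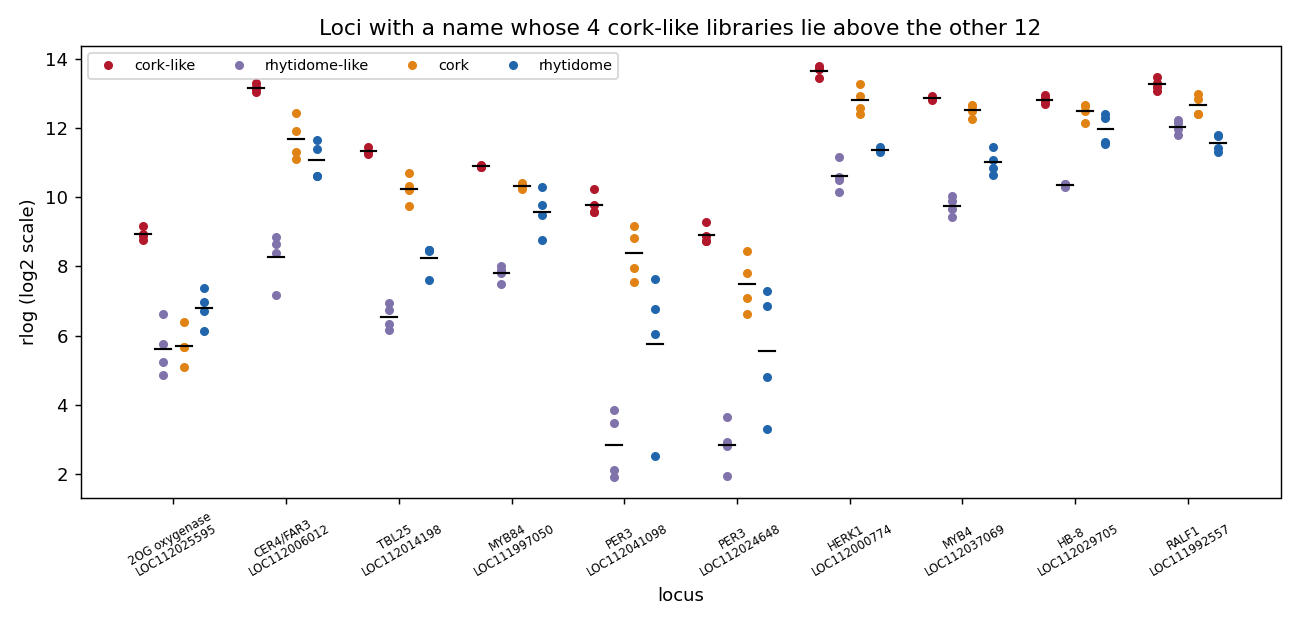
Rlog (log2 scale) at LOC112025595 (2OG oxygenase, among the 200) and at 9 of the named loci with a score above 0 outside the 200, with 1 point per library and a bar at the mean of each bark. Every cork-like point is above every other point of the same locus, with cork close below at HB-8 and MYB4, and rhytidome-like bark the lowest at 9 of the 10 loci plotted. The plotted loci were picked by hand. Those left out include LOC111998961 and LOC112029835 (Divalent ion symporter), where rhytidome had the lowest mean.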

How the data were processed

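The authors trimmed the first 12 bases of paired reads of 100 bases with Trimmomatic 0.40, mapped the reads of all barks with GSNAP to a cork oak assembly (CorkOak1.0), kept unique concordant pairs, counted them per locus with HTSeq 0.11.1 (Cufflinks 2.2.1 is also listed) and made rlog values with DESeq2 1.38.3. No source used here gives the strand setting. The deposited values are on a log2 scale, are scaled for depth by the authors and are shrunken toward the mean of a locus, most where counts are low. They hold no counts, so no depth or counting error is given, and precision rests on the number of trees.

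Groups were taken from the library titles. The 12 libraries of rhytidome-like bark, cork and rhytidome were fitted with limma 3.58.1 in R 4.3.3 with 1 mean for each bark and a variance that follows the mean level (trend), and p-values were adjusted by Benjamini and Hochberg over the 25617 loci that averaged at least 1. The study modelled all 16 libraries. That fit is an alternative here, because the cork-like libraries share a tree and entered the choice of loci. Contrasts with cork-like bark were not tested. Python 3.11.15 (pandas 2.3.3, numpy 2.4.6, matplotlib 3.10.9) gave the summaries and plots. The test was tried on simulated data, where a first limit on the share recovered was narrowly missed and was replaced by checks on the estimated change, on false calls and on recovery rising with the change.

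The loci and lists were chosen with earlier results of these data known. Loci described were the 30 of highest score, those next to the limit, up to 3 called higher and 3 lower with the largest change in each of 4 comparisons, the 5 with the largest range among sides, the 5 with the highest cork-like mean, and any in a list, of which the text gives a part. Names came from the study's periderm table and the 1218 rows of its annotated table that were used, so 36 lists by product words gave 0 members and the list of periderm genes gave 0. No sequences are shown. Alternatives changed the filter, the scaling, the score, the variance, the libraries fitted and the fold change threshold, or left out each library.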

Additional observations from a re-analysis of the deposited data

Results flagged for a closer look

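In 196 groups of 4 libraries (48 loci and the median over the 200 loci, in each of 4 barks), 11 had a library far from the other 3 by Dixon's criterion at 95%, where chance gives about 1 in 20. The number of flags was thus near what chance gives, and no single flag is a result by itself. In rhytidome-like bark, tree 21 had 8.0 at LOC112024113, against a mean of 10.04 in the other 3 trees, and 7.93 at LOC111988838, against 8.79. In cork, tree 89 had 9.94 at LOC112020086, against 4.90, and tree 91 had 8.52 at LOC112011371, against 5.02, and 7.79 at MYB4 (LOC111990470), against 9.28. In rhytidome, tree 68 had 2.59 at LOC111988811, against 6.74, and tree 33 had 2.32 at LOC112010056, against 2.90. Rhytidome 67 had 8.82 at LOC112004206, against 8.99, and 7.61 at TRICHOME BIREFRINGENCE-LIKE 25 (LOC112014198), against 8.46. Its median over the 200 loci was 6.72, against a mean of 7.05 in the other 3 rhytidome trees. In cork-like bark, the north library had 9.46 at LOC111997018, against 8.69 in the other sides. Whether these values belong to the trees or to the libraries was not tested.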

How the results depend on the processing

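The make-up of the 200 loci depended on the filter and the score. Of the 200, 111 were kept with a mean rlog of at least 7, 110 with a mean of at least 5 in the cork-like libraries only, 120 with the score taken from bark means, 134 with a mean of at least 3, 181 with quantile normalization and 152 with median centring. Leaving out each library in turn kept 171 to 194. Loci with a score above 0 numbered 331 with median centring and 795 to 947 with a library left out, against 762. Median centring over all loci moves the barks apart, since the mean of the library medians over all loci was 1.73 in cork-like bark, 1.5 in rhytidome-like bark, 1.16 in cork and 2.04 in rhytidome, while over the 17754 loci this mean was 9.12, 9.03, 9.12 and 9.13. Centring on the 17754 loci, added after seeing the data, kept 196 of the 200 and gave 689 loci above 0. Leaving out both rhytidome 94 and rhytidome-like 21, also added then, kept 170 and gave 902.

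With median centring, cork minus rhytidome had 9829 calls, against 6456, and 79 of the 200 loci, against 40. This rise was not particular to the 200 loci. With median centring 35.5% of them were called higher in cork and 4.0% lower, against 39.4% and 5.62% of the 17754 loci. As deposited these shares were 13.0% and 7.0%, against 12.7% and 12.2%. The share of calls that were higher in cork was 41.1% as deposited, 55.4% with quantile normalization and 81.6% with median centring. In rhytidome-like minus rhytidome the share higher was 33.6%, 48.8% and 74.6%, and in rhytidome-like minus cork 47.6%, 48.1% and 32.2%. With treat, which tests for a change above 1, the calls numbered 2170 in cork minus rhytidome, 3112 in rhytidome-like minus cork, 570 in rhytidome-like minus rhytidome and 1474 in rhytidome-like minus the parental mean, and 12, 27, 1 and 14 of the 200 loci. The calls as reported were 6456, 7251, 3542 and 5178. With a library left out, they ranged over 5356 to 6502, 6554 to 7246, 2777 to 3626 and 4450 to 5087, and the called loci of the 200 over 28 to 44, 52 to 72, 26 to 37 and 47 to 53, in the same order of comparisons. For treat and for these ranges no share of the 17754 loci is given. The counts therefore do not show how the 200 loci compare with all loci. Under every scaling run, more of the 200 were called lower than higher in rhytidome-like bark in its 3 comparisons. Of 546 values of 24 single-locus results under alternatives, 502 kept their call, 44 lost it and 0 were reversed. The 24 were picked as the largest called changes, so most were likely to keep their call. They include results at LOC112017906, LOC112009268 and LOC112003189, which passed the filter only through cork-like bark. Calls at these loci carry no weight. Of the losses, 11 were at LOC112009268 (cork minus rhytidome) and others at LOC112022831, LOC111987735 and LOC112017906 in rhytidome-like minus rhytidome, lost with treat. The causes were not tested. No paired analysis was possible because the groups share no replicate numbers.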
